A study of Homo sapiens with 6 samples.

Results

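The genes described here serve cilia and were followed in L428 cells after knockdown of the transcription factor BATF3. They are CFAP57, CFAP263, CEP126, CLUAP1, TRAF3IP1, IFT20, IFT57 and IFT88. Each was read through all probe sets that the platform annotation assigns to 1 of these symbols alone, in all 24 of the 49293 probe sets tested and 8 of 18244 genes. The genes were chosen with their differences between the siRNAs already known, so these differences are given as a description, and the limma calls given for them support nothing. L428 is an established human Hodgkin lymphoma line. Knockdown cells received 3 µg of a BATF3 siRNA and their controls 3 µg of a negative control siRNA, both by nucleofection, and RNA was taken after 48 hours of culture. There were 3 arrays per siRNA, 6 in all, of the Affymetrix PrimeView type, which reads each transcript with sets of short probes. A single BATF3 siRNA was used, and the labels do not say whether the replicates were separate cultures, so the spread between them may be technical.

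Cilia are built by intraflagellar transport, in which trains of protein complexes carry cargo along the axonemal microtubules. The IFT-B complex of these trains has a core, IFT-B1, which holds IFT88, and a peripheral part, IFT-B2. In IFT-B2 CLUAP1 (also called IFT38) binds IFT57, and TRAF3IP1 (also called IFT54) binds IFT20. The other members work outside the trains. CFAP57 is a WD-repeat protein of the motile axoneme, whose Chlamydomonas counterpart takes part in the assembly of inner dynein arms. CFAP263 (also called CCDC113) is found at centriolar satellites and in the axoneme, and CEP126 is a centrosomal protein needed for microtubule organisation and cilium formation. Lymphoid cells are generally held to lack a primary cilium, and IFT20, IFT57 and IFT88 are known in T cells for vesicle traffic to the immune synapse.

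Values are log2 signals as deposited, where 1 unit is a factor of 2 only for a probe set well above background. The brightest probe set by its mean over the 6 arrays stood for each gene. As a gauge of background, the highest of each array's background control probe sets was used, which read 6.68 to 7.32. Of the 24 probe sets, 8 were above that level on all 6 arrays and 15 were under it on all 6. The GC-rich background probe sets (GC numbers 20 to 25 by name) were dimmer on BATF3 siRNA replicates 2 and 3, with means of 5.92 and 5.98, than on BATF3 siRNA replicate 1 and the 3 control siRNA arrays, which averaged 6.46 to 6.49. Hodgkin line markers were above the highest background probe set for 6 of 6 genes. Of the markers of other cells, 1 of 7 multiciliated genes (FOXJ1) and 0 of 3 T and NK cell, 0 of 3 myeloid and 0 of 3 fibroblast and epithelial genes were above it on every array, as were 0 of 2 B cell genes. Some of these near-background lists did not overlap between the siRNAs, with list means of 4.46 to 4.59 in the BATF3 siRNA arrays and 4.25 to 4.32 in the control siRNA arrays for T and NK cell markers. Myeloid markers averaged 3.50 to 3.65 after BATF3 siRNA and 3.22 to 3.48 after control siRNA, and fibroblast and epithelial markers 4.52 to 4.63 after BATF3 siRNA and 4.72 to 4.76 after control siRNA. The part of these cells in the results was not tested.

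The knockdown itself was visible. BATF3 read 10.87, 10.76 and 10.69 in the BATF3 siRNA arrays, against 11.89, 12.08 and 11.94 in the control siRNA arrays. That is a log2 difference of -1.20 (SE 0.095), which left 43.6% of the level in controls (limma adjusted p = 0.00673).

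The upstream sequences of the genes are given for CLUAP1 and CFAP57, both lower on all 3 BATF3 siRNA arrays. They are also given for IFT57 and IFT20, the IFT-B2 genes among the 8 whose groups overlapped in the brightest probe set. Each runs from 250 bases before to 50 after a RefSeq transcript start in GRCh38.p14, at chr16:3500754-3501053 (plus strand), chr1:43172080-43172379 (plus strand), chr3:108222375-108222674 (minus strand) and chr17:28335423-28335722 (minus strand). The RefSeq record of CLUAP1 begins further upstream, so its window surrounds only 1 of its starts. Capitals mark motif matches.
CLUAP1: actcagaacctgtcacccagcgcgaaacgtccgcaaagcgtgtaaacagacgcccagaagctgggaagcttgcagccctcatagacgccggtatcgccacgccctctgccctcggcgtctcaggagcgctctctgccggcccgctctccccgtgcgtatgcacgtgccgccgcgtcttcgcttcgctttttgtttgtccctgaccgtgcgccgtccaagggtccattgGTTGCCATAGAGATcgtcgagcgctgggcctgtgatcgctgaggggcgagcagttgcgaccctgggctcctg
CFAP57: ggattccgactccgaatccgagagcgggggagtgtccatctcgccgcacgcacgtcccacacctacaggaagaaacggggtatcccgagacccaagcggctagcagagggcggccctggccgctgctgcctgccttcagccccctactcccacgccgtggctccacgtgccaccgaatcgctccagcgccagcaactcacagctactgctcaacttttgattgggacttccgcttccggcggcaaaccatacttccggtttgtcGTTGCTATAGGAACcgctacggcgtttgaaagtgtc
IFT57: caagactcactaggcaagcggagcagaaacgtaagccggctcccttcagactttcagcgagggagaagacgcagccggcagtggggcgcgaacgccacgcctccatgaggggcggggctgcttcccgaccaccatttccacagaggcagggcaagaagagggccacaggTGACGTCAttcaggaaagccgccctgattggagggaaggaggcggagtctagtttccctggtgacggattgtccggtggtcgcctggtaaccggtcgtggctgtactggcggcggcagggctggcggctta
IFT20: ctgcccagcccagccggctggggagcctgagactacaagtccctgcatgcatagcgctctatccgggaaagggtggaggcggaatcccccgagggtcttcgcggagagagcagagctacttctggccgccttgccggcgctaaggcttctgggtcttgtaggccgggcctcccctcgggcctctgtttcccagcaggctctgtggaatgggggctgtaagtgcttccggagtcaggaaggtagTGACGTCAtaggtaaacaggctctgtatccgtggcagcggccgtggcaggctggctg

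The capitals in the first pair are matches, on either strand, to the 14-base X-box consensus, which in worms is the site of the RFX factor that drives ciliary genes. The match begins at base -22 in CLUAP1 and at base 15 in CFAP57, counted from the start of transcription, and 2.23% of the 27305 genes with a promoter sequence hold one. Among the 8 genes these 2 alone held the consensus, which was added to the search after the promoters had been read. A shorter X-box element, GTTGCCA on either strand, was found in CLUAP1 (inside the same match), CEP126 and IFT88, and in 4.98% of all genes. The capitals in IFT57 and IFT20 are matches to the cyclic AMP response element TGACGTCA, at bases -81 and -7, which 2.25% of genes hold. The AP-1 site TGANTCA, a palindromic pattern that BATF and JUN dimers can bind, was in 0 of the 8 promoters and in 9.37% of all genes. A match describes letters only and a missing one says nothing of the factor.

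Of the 8 genes, 5 had all 3 BATF3 siRNA arrays under all 3 control siRNA arrays, where 5.78% of all genes did. These were CFAP57, CFAP263, CLUAP1, CEP126 and TRAF3IP1. The probe sets of these 5 genes were lower in mean in 13 of 13 cases, and 11 of the 13 did not overlap. Both counts hold the brightest set of each gene, which was lower without overlap by the grouping itself. Over all probe sets, 5.85% were lower without overlap. None of the 8 genes or 24 probe sets passed an adjusted p under 0.05 in limma, where 0.0164% of genes and 0.0101% of probe sets did. At an unadjusted p under 0.05 there were 5 of the 8 genes, against 7.15% of all genes (3.42% lower and 3.73% higher). Since the genes were picked from this contrast, nothing is read from these shares. In all, 34 genes (0.186%) were lower by at least 0.5, CFAP57, CFAP263 and CLUAP1 among them.

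**Figure D1:**
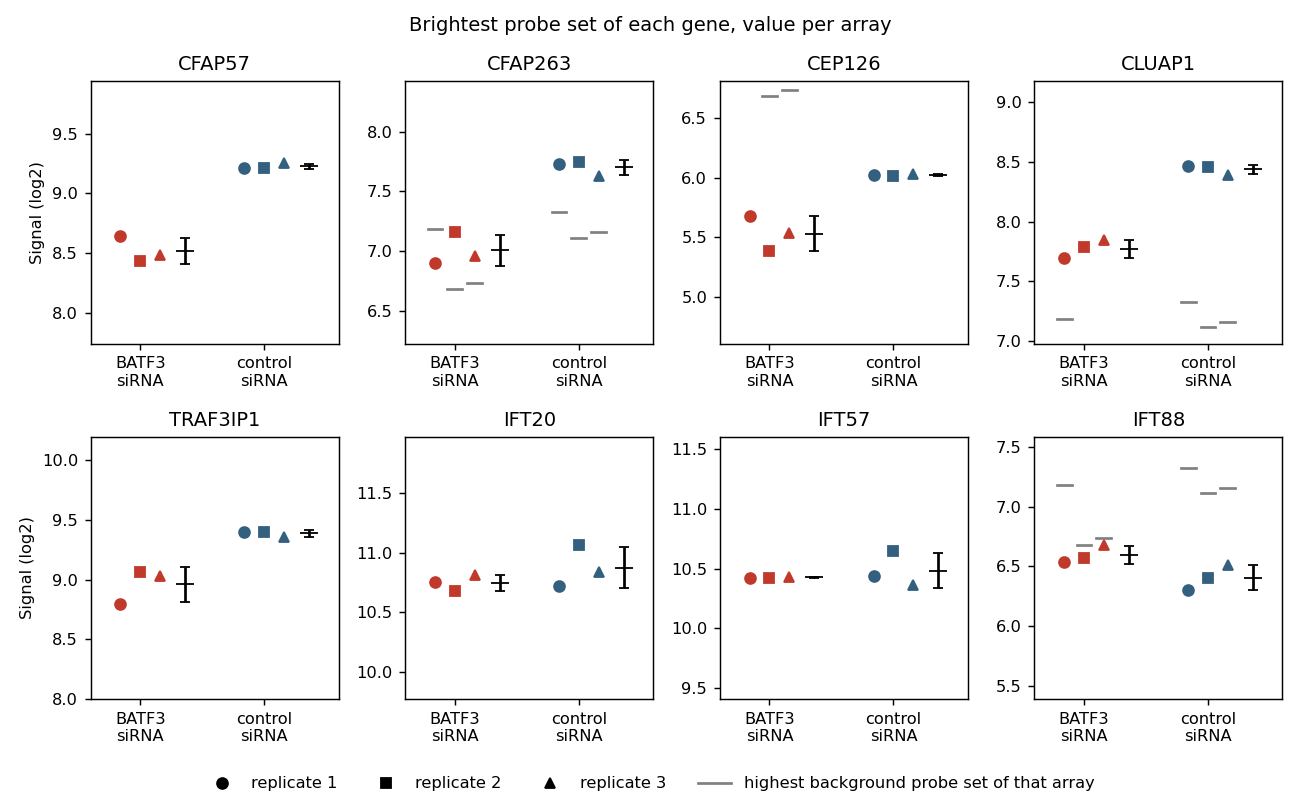
Log2 signal of the brightest probe set of each gene on each of the 6 arrays, with the mean and SD of each siRNA beside the points and the array's highest background probe set as a grey line where it lies in range. In CFAP57, CFAP263, CEP126, CLUAP1 and TRAF3IP1 the BATF3 siRNA points lie under the control siRNA points, and in IFT20 and IFT57 they overlap.

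Of the genes outside the transport trains, CFAP57 stood at 8.64, 8.43 and 8.49 in the BATF3 siRNA arrays, against 9.21, 9.21 and 9.25 in the control siRNA arrays. The 3 control values lay close together, and 0.58 separated the groups. The difference was -0.71 (SE 0.090), or 61.2% of the control level. The second CFAP57 probe set was under the highest background probe set on all 6 arrays. It read 5.74, 6.09 and 5.83 after BATF3 siRNA and 6.75, 6.68 and 6.75 after control siRNA, a difference of -0.84 (SE 0.11). Both sets of this axonemal gene thus placed the BATF3 siRNA arrays under the controls.

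CFAP263 read 6.90, 7.16 and 6.96 in the BATF3 siRNA arrays, against 7.73, 7.75 and 7.63 in the control siRNA arrays, for its brightest probe set. The difference was -0.70 (SE 0.098), or 61.7% of the control level, and the groups were 0.48 apart. BATF3 siRNA replicate 1 alone lay under its array's highest background probe set (7.18). The other 3 sets lay under that level throughout, with differences of -0.53, -0.51 and -0.24, and in the last, dimmest one the groups overlapped. The middle pair held equal values, to within 1e-06, on 2 of the 6 arrays, so they may not be independent readings.

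CEP126 was under the highest background probe set on all 6 arrays in all 3 of its probe sets, so the size of its difference is uncertain. Its brightest set read 5.67, 5.38 and 5.53 after BATF3 siRNA and 6.02, 6.02 and 6.03 after control siRNA. The difference was -0.49 (SE 0.097), or 71.1% of the control level, and the groups did not overlap. The other sets of this centrosomal gene differed by -0.23, with overlap, and by -0.086, with the groups 0.032 apart.

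CLUAP1, the IFT-B2 subunit that pairs with IFT57, stood at 7.69, 7.78 and 7.84 in the BATF3 siRNA arrays, against 8.46, 8.46 and 8.39 in the control siRNA arrays. All 6 values were above the highest background probe set, and 0.55 separated the groups. The difference was -0.66 (SE 0.086), or 63.1% of the control level. The dim second probe set ran from 4.86 to 5.12 across the BATF3 siRNA arrays and from 5.31 to 5.55 across the control siRNA arrays, a difference of -0.45 (SE 0.11). It too had no overlap between the siRNAs.

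TRAF3IP1, the IFT-B2 subunit that pairs with IFT20 and also binds the signalling adaptor TRAF3, had both probe sets above background on every array. The brighter one read 8.80, 9.06 and 9.03 after BATF3 siRNA and 9.40, 9.40 and 9.36 after control siRNA, a difference of -0.43 (SE 0.098), or 74.5% of the control level. The other read 7.60, 7.81 and 7.51 after BATF3 siRNA and 7.99, 8.32 and 8.12 after control siRNA, a difference of -0.51 (SE 0.12). Neither set had overlapping groups. Of the 4 partners set beside CLUAP1, TRAF3IP1 was the one whose difference ran the same way without overlap.

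The brightest probe sets of IFT20, the partner of TRAF3IP1, and IFT57, the partner of CLUAP1, did not separate the siRNAs. IFT20, which is also found at the Golgi, read 10.75, 10.68 and 10.82 after BATF3 siRNA, against 10.72, 11.06 and 10.84 after control siRNA. The difference was -0.13 (SE 0.11). Control siRNA replicate 2 was the highest array and the groups overlapped in all 4 IFT20 probe sets, whose differences ran from -0.13 to -0.011. Leaving that array out gave a difference of -0.031, while leaving out control siRNA replicate 1 gave -0.20. IFT57 read 10.42, 10.43 and 10.43 after BATF3 siRNA, against 10.44, 10.65 and 10.36 after control siRNA. The BATF3 siRNA values fell inside the control range, with a difference of -0.058 (SE 0.098). That sign turned without control siRNA replicate 2, with array weights and with all 4 probe sets averaged (0.026, 0.030 and 0.0085). Its 3 dim probe sets, under background on every array, disagreed, at -0.24 (no overlap), 0.16 and 0.17.

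IFT88, the core subunit of IFT-B1, was under the highest background probe set on all 6 arrays in its 3 probe sets. The brightest read 6.54, 6.57 and 6.68 after BATF3 siRNA and 6.30, 6.40 and 6.51 after control siRNA, a difference of 0.19 (SE 0.094). The groups were 0.026 apart, which is less than the SD of 0.11 among the controls, and 6.39% of all probe sets were higher without overlap. The other IFT88 sets differed by 0.053 and 0.12, both with overlap. Its direction was thus opposite to that of CLUAP1, with values near background.

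**Figure D2:**
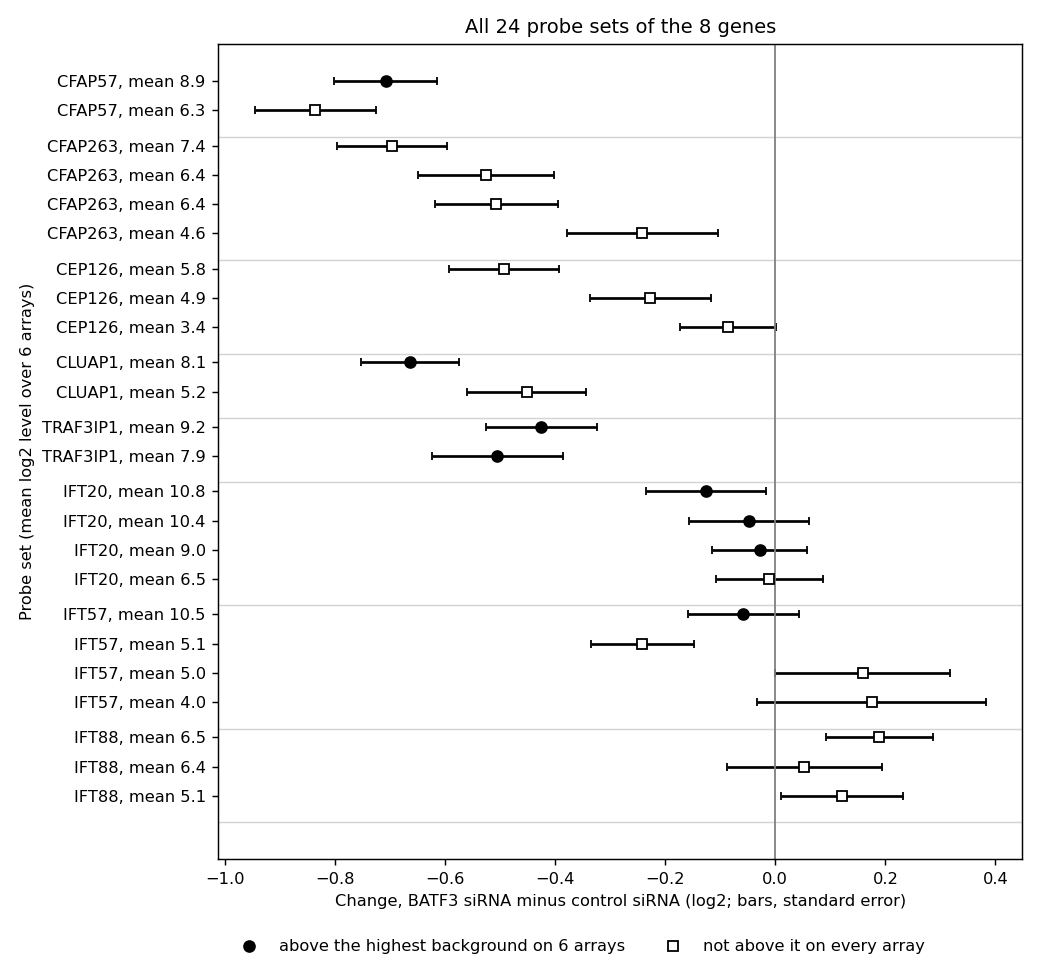
Difference between the siRNAs (BATF3 siRNA minus control siRNA, log2, with its standard error) for all 24 probe sets, grouped by gene and labelled with the mean level, filled where the set was above the highest background probe set on all 6 arrays. Sets of CFAP57, CFAP263, CEP126, CLUAP1 and TRAF3IP1 lie left of 0 in 13 of 13 cases, the brightest of each by selection. Those of IFT57 lie on both sides.

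CLUAP1 was then set against its partners within each array, as its log2 value minus that of the partner, centred on the control mean so that no level is compared between genes. Against IFT57 the values were -0.68, -0.59 and -0.54 in the BATF3 siRNA arrays and 0.070, -0.15 and 0.077 in the control siRNA arrays, a difference of -0.61 (SE 0.084). Against IFT20 the difference was -0.54 (SE 0.11). Against IFT88, which was under the highest background probe set on all 6 arrays, it was -0.85 (SE 0.085), a value whose size is uncertain. CLUAP1 was thus lower relative to IFT57 and IFT20 on all 3 BATF3 siRNA arrays than on any control array. Against TRAF3IP1 the values were -0.15, -0.33 and -0.24 in the BATF3 siRNA arrays and 0.0097, 0.0038 and -0.013 in the control siRNA arrays. That difference, -0.24 (SE 0.052), was smaller than against IFT57 and IFT20, and it too had no overlap.

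Against the mean of the 4 partners, the dim IFT88 among them, the values were -0.58, -0.55 and -0.55 in the BATF3 siRNA arrays and 0.098, -0.073 and -0.025 in the control siRNA arrays. The difference was -0.56 (SE 0.052). Against the mean of all 16 other IFT-B genes measured it was -0.61 (SE 0.046). Of the 12 that this mean adds to the 4 partners, only 6 were above the highest background probe set on all 6 arrays. Control siRNA replicate 2 weighed on the partners more than on CLUAP1. Of the 17 IFT-B genes 8 were highest in that array, as were 27.3% of all genes, and the part of this in the comparison was not tested beyond leaving the array out, which gave -0.60.

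**Figure D3:**
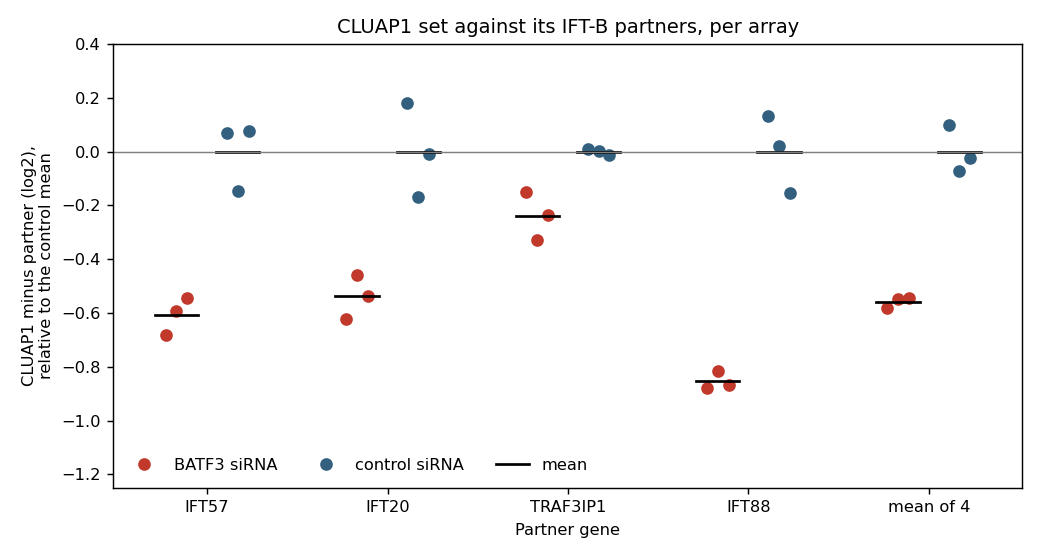
CLUAP1 minus each partner (log2) on each array, shifted so that the control mean is 0, with BATF3 siRNA left of control siRNA and a line at each mean. The BATF3 siRNA points lie under the control siRNA points for all 4 partners, with means of -0.24 for TRAF3IP1, -0.54 for IFT20 and -0.61 for IFT57. IFT88 (-0.85) was under the highest background probe set on every array.

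The background split, read in the brightest probe set of each gene, gave different sizes for different genes. BATF3 siRNA replicate 1 had the background of a control array, and there the difference from the control mean was -0.74 for CLUAP1, -0.80 for CFAP263 and -0.59 for TRAF3IP1. Replicates 2 and 3 averaged -0.62, -0.65 and -0.34 for the same genes. In their brightest sets these 3 were thus further from the controls in the array with matched background. The other CFAP263 sets, under background on all 6 arrays, were at -0.25, -0.30 and -0.12 in replicate 1. Replicates 2 and 3 averaged -0.66, -0.61 and -0.30 for those sets, the other way round. The second CLUAP1 set hardly differed (-0.44 and -0.46), and the second TRAF3IP1 set went the same way as its first (-0.55 and -0.48). CFAP57 was at -0.59 in replicate 1 and -0.77 in the other two, and CEP126 was at -0.35 and -0.56. In these brightest sets the arrays with lower background lay further from the controls. The second CFAP57 set, under background, went the other way (-0.99 and -0.76), while the other CEP126 sets went the same way. The part of background in these differences was not tested. The brightest sets of IFT20 (-0.12 and -0.13) and IFT57 (-0.063 and -0.055) hardly differed by background. IFT88 was at 0.13 and 0.22.

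**Figure D4:**
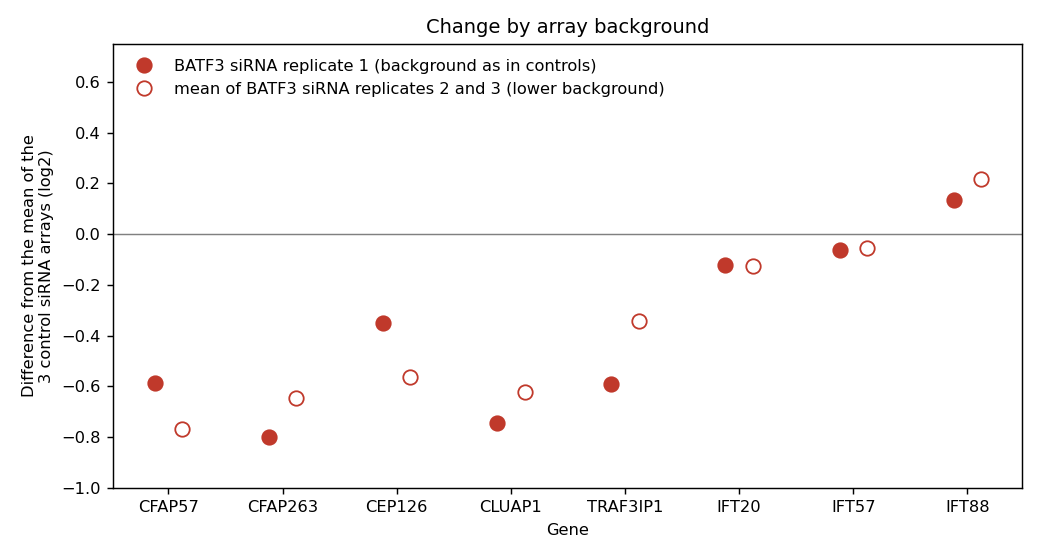
Difference from the mean of the 3 control siRNA arrays (log2) in the brightest probe set of each gene. Points show BATF3 siRNA replicate 1, whose array background matched the controls, and the mean of replicates 2 and 3. The filled points lie under 0 for every gene but IFT88, with CLUAP1 at -0.74 and CFAP57 at -0.59. The part of background in the differences was not tested.

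The other IFT-B genes were measured for 12 genes, and 0 passed in limma, with 1 higher and 1 lower at an unadjusted p under 0.05. Their median difference was -0.051, beside -0.0027 over all genes. IFT81, a tubulin-binding IFT-B1 subunit, was at -0.32 (SE 0.11; limma adjusted p = 0.579) and its groups did not overlap. It read 5.53, 5.79 and 5.90 after BATF3 siRNA and 6.07, 6.06 and 6.06 after control siRNA, all under the highest background probe set. IFT74, its binding partner, was at -0.18 (SE 0.099), with the groups 0.010 apart. IFT70A was at 0.36 (SE 0.15) with overlap and IFT70B at 0.23, both under the highest background probe set on all 6 arrays. The remaining 8 all overlapped between the groups, at 0.11 for IFT46, 0.0094 for IFT25, -0.0083 for IFT56, -0.032 for IFT52, -0.070 for IFT27, -0.10 for IFT80, -0.15 for IFT22 and -0.23 for IFT172. The mean over the 12 genes was -0.033 (SE 0.022) different between the siRNAs, and it overlapped.

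Beyond IFT-B, ciliary genes were followed in 8 further lists, which with the other IFT-B genes held 106 measured genes. Of the 106, 0 passed in limma, and the median difference was -0.022. At an unadjusted p under 0.05, 4 of the 106 were higher and 4 lower, where 3.73% and 3.42% of all genes were. The groups did not overlap for 3 higher and 5 lower genes, where 6.36% and 5.78% of all genes did so. The dynein-2 subunit DYNC2LI1, part of the motor of return transport, was at -0.34 (SE 0.094; limma adjusted p = 0.493) without overlap, and DYNC2I2 at -0.17, in a list of kinesin-2 and dynein-2 genes whose median was -0.045 over 9. Among 27 axonemal CFAP genes, the group CFAP57 belongs to, 14 were negative and 0 passed. The median was -0.025. CFAP251, a radial spoke protein, was at -0.30 and CFAP47 at 0.29, both under background. Centriolar satellite genes had a median of 0.0073 over 12. CFAP184, which forms a complex with CFAP263 in the axoneme, was at -0.49 with overlap and a mean of 3.99 after BATF3 siRNA. CEP72, a satellite protein that binds PCM1, was at 0.26 without overlap.

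The axonemal dyneins had a median of 0.017 over 14 genes, with DNAI2 at 0.48 and DNAL1 at 0.24. DNAI2 was under the highest background probe set on all 6 arrays. Dynein assembly factors had a median of -0.033 over 8, with DNAAF2 at 0.29 and ZMYND10 at -0.23. IFT-A genes, whose products form another complex of the transport trains, had a median of -0.040 over 6, with IFT140 at -0.20 and TTC21B at 0.097. BBSome genes had a median of -0.023 over 9, with BBS4 at -0.13 and BBS1 at -0.10. The list labelled ciliary transcription factors (FOXJ1, GMNC, CCNO, RFX1 to RFX5 and RFX7) had a median of -0.040 over 9. GMNC was at -0.22 and RFX2 at -0.15. In none of these lists did a gene pass the threshold. IFT140, ZMYND10, BBS1 and GMNC were under the highest background probe set on all 6 arrays. Multiciliated cell markers had a list mean of 5.02 to 5.07 in the BATF3 siRNA arrays and 5.04 to 5.10 in the control siRNA arrays. RSPH1, 1 of the 7, was lower without overlap (-0.24), as were 5.78% of all genes. The part of these markers in the differences above was not tested.

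**Figure D5:**
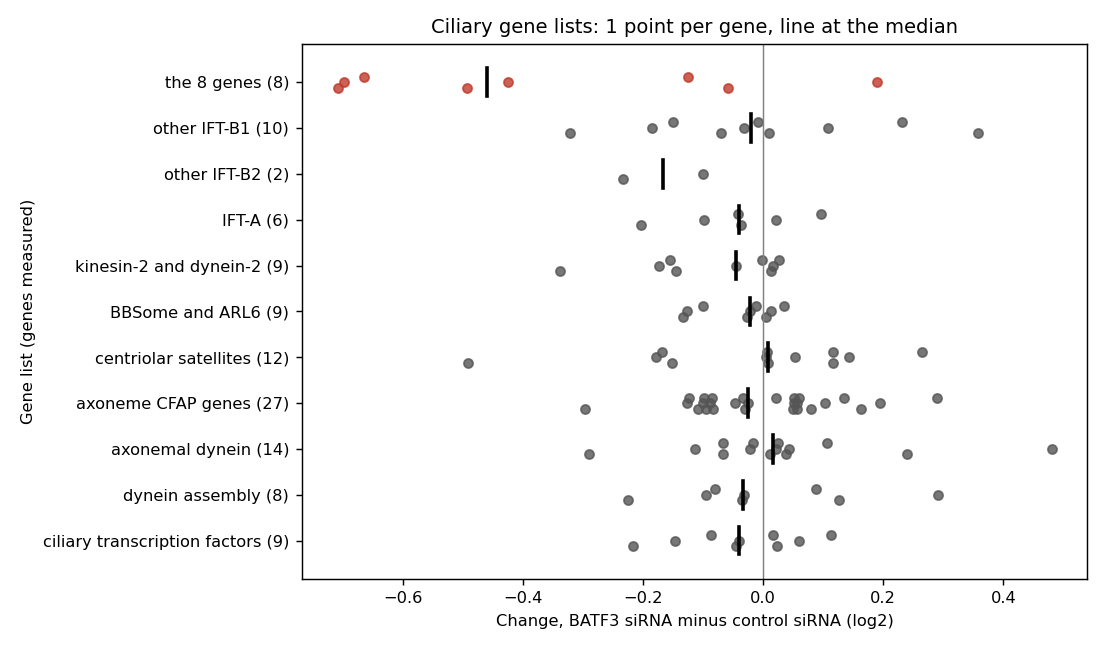
Difference between the siRNAs (BATF3 siRNA minus control siRNA, log2) for each gene of the 8 followed here and of the 10 ciliary lists, with a line at each median and the number of genes in brackets. The medians of the lists lie between -0.17 and 0.017, and the 8 genes, chosen from this contrast, have theirs at -0.46.

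The genes whose pattern was most like that of CLUAP1 over the 6 arrays, among 7805 others above the highest background probe set on every array, were DST, GPX3, MRPS17, GSTCD and SAMD5. Their Pearson correlations with CLUAP1 were 0.99, 0.99, 0.98, 0.98 and 0.98. These points share the 2 siRNA groups, so the correlation mostly ranks how cleanly a gene separates them. DST, which encodes the cytoskeletal linker dystonin, read 8.70, 8.69 and 8.74 after BATF3 siRNA and 9.26, 9.18 and 9.10 after control siRNA. On the same measure CFAP263 was at 0.98, TRAF3IP1 at 0.96, CFAP57 at 0.95 and CEP126 at 0.91, while IFT20 was at 0.52, IFT57 at 0.36 and IFT88 at -0.77.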

How the data were processed

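RNA of L428 cells was measured on 6 PrimeView arrays, 3 after BATF3 siRNA and 3 after control siRNA, grouped by sample title. The authors deposited 1 log2 value per probe set and array, made with the affy package for R per the submitters' processing notes. The background correction, normalization and summarization steps and their settings are not stated in any label or file header read here. The log base was judged from the values. Array medians lay between 6.25 and 6.33, and scaling arrays to a common level would hide a shift shared by most transcripts.

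Of 49495 probe sets, 102 AFFX and 100 ERCC controls were left out. Symbols came from the platform annotation, and 45208 of 45278 single-gene probe sets had their Entrez identifier in the RefSeq table of GRCh38.p14, with 0 symbols changed. For the 11825 genes with several probe sets the brightest by mean stood for the gene, giving 18244 genes. Differences (BATF3 siRNA minus control siRNA) and their standard errors came from limma 3.58.1 (lmFit and eBayes, two-sided) in R 4.3.3, fitted over all genes and over all 49293 probe sets, with Benjamini-Hochberg adjustment and a threshold of 0.05. The fit had 9.30 total degrees of freedom, and the number of arrays limits the precision. An exact permutation test of 3 arrays against 3 cannot go below 0.1. The fit was tested on simulated data. Standard errors of differences between genes came from the SDs of the 3 arrays per siRNA.

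Members, lists and alternatives were chosen with earlier results of these data known. The rule for named genes took the 8 genes, BATF3, every other IFT-B gene measured, the 2 genes of each other ciliary list with the smallest p, and the 5 genes most correlated with CLUAP1. RSPH1 and FOXJ1, of the marker list, were named after their values were seen. BBIP1, CFAP54, CFAP58 and MCIDAS were not analysed here. Promoters came from RefSeq, matched by symbol for 8 of 8 genes. The arrays were not paired by replicate number, and the closing section gives the fit with that number as a block. Alternatives covered normalization, filters, probe set choice, array weights, an intensity trend, blocks and leaving out each array.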

Additional observations from a re-analysis of the deposited data

How the results depend on the processing

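The count of genes past the threshold was 3, and of probe sets 5. The count became 25 genes and 67 probe sets with array weights, and 12 and 9 with an intensity trend and robust prior. It was 6 and 10 with features of mean at least 6 only. With array background as a block, the differences came from BATF3 siRNA replicate 1 alone against the 3 control siRNA arrays. That fit cannot show whether background made the calls, so its calls are not read, here or for the ciliary genes. Leaving out 1 array gave 0 to 2 genes and 0 to 2 probe sets. None of the 8 genes was called in the fit as reported. With array weights, the trend and the filter CFAP57, CFAP263 and CLUAP1 were, and with all probe sets averaged CFAP57 was. The filter removed CEP126. Array weights put 3.85 on control siRNA replicate 3 and 0.38 on replicate 2. The other ciliary genes had 0 calls under all 15 alternatives, with 106 genes run in 14 of them and 61 under the filter.

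CLUAP1 against its partners (-0.56 with the 4 partners) ran from -0.61 to -0.46 over 14 alternatives. The -0.61 had all other measured IFT-B genes as partners, and the -0.46 had all probe sets averaged. With the 4 partners the lowest value was -0.60, and leaving out 1 array gave -0.60 to -0.51. Median centring shifts all genes of an array alike, so it could not change this comparison. Of the members, IFT57 turned sign with array weights (0.030), averaged probe sets (0.0085) and without control siRNA replicate 2 (0.026), with -0.12 as its lowest value (without control siRNA replicate 3), and the cause was not tested. The other 7 genes kept their direction under all 13 alternatives run for them. The ranges were -0.77 to -0.59 for CFAP57, -0.80 to -0.49 for CFAP263, -0.74 to -0.56 for CLUAP1 and -0.59 to -0.34 for TRAF3IP1. They were -0.56 to -0.27 for CEP126, -0.20 to -0.031 for IFT20 and 0.12 to 0.24 for IFT88. All but IFT20 had groups without overlap in the brightest set. For those, leaving out an array, array weights or a block could not turn the sign. With array background as a block, the differences were those of BATF3 siRNA replicate 1 from the control mean. They gave the ends -0.59 for CFAP57, -0.80 for CFAP263, -0.74 for CLUAP1 and -0.59 for TRAF3IP1. With the replicate number as a block (replicate block) 3 genes and 5 probe sets were called. In this balanced design that block cannot change a difference, so the CLUAP1 comparison (-0.56) and the member differences stayed the same by construction. The deviations of same-numbered arrays correlated at 0.029, 0.15 and -0.025 across genes, beside -0.10 to 0.097 for arrays with different numbers. These values cannot show whether same-numbered arrays were handled together. The block left both counts as they were. With 3 arrays per siRNA and 15 of 24 probe sets under the highest background probe set, the sizes of the dim members (CEP126, IFT88) are uncertain.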
